A study of Homo sapiens with 12 samples.

Results

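The subject is a set of 9 genes of interferon signaling in DU145 cells: the interferon regulatory factors IRF1, IRF2, IRF3, IRF5, IRF7 and IRF9, the transcription factor STAT2, the kinase JAK1 and the suppressor SOCS1. They were taken by symbol from a table of 26341 genes, and all 9 were present and passed the expression filter that left 15890 genes for testing. DU145 is a prostate cancer line derived from a metastasis to the central nervous system. The 4 groups were DACTPL, given decitabine and triptolide; DAC, given decitabine at 33 nM; TPL, given triptolide at 2 nM; and Ctrl, given the vehicle DMSO. Drug was added once a day on 3 days and cells were then grown for 17 days without it, so that RNA was taken 20 days after the start. The triptolide dose in DACTPL was 2 nM, while its decitabine dose was given as 33 nM in the sample characteristics and as 3 nM in the treatment protocol and was not settled. Decitabine, a cytidine analogue, inhibits DNA methyltransferases once dividing cells have incorporated it, and triptolide inhibits transcription through the ERCC3 helicase of TFIIH. Each group had 3 libraries of stranded total RNA, from the 1 cell line, and the labels did not say that these were separate cultures, so p-values measured no more than how these libraries varied, which may be technical variation.

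Type I and type III interferons bind receptors at the cell surface that carry the kinases JAK1 and TYK2. These phosphorylate STAT2, which joins IRF9 in ISGF3, a complex that binds the interferon-stimulated response element (ISRE) and switches on antiviral genes. Interferon gamma acts through the gamma-activated site (GAS), with IRF1 as an early product, while IRF3, IRF5 and IRF7 act upstream and switch on the interferon genes once a sensor of foreign nucleic acid has been engaged. In cancer cells this pathway is known for its response to inhibitors of DNA methylation, which can release RNA from silenced repeats.

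Promoter windows from RefSeq (GRCh38.p14), reaching from 250 bases before a gene start to 50 after it, were matched for 6 of the 9 members, namely IRF1, IRF5, IRF9, STAT2, JAK1 and SOCS1. They were searched on both strands for the ISRE core, which is GAAA and GAAA with any 2 bases (NN) between them, and for the GAS motif TTCNNNGAA, which reads the same on both strands. These motifs were held by 3.57% and 7.66% of all 35116 windows in the table. A match is a description of the letters and not a mapped site. The 3 windows with a match are shown because they belong to genes that interferon is known to induce, with the motif in capitals. The GAS letters TTCCCCGAA began 124 bases before the start of IRF1 (chr5:132490724-132491023, minus strand), the GAS letters TTCTGGGAA 63 bases before the start of IRF9 (chr14:24161015-24161314, plus strand), and the ISRE letters GAAAGAGAAA 113 bases before the start of SOCS1 (chr16:11256155-11256454, minus strand).
IRF1: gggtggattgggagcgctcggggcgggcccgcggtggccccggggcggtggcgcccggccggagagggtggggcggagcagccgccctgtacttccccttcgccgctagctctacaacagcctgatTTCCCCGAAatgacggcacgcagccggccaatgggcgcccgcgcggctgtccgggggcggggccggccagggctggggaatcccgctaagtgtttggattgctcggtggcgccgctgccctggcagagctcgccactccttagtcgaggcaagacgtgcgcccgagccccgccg
IRF9: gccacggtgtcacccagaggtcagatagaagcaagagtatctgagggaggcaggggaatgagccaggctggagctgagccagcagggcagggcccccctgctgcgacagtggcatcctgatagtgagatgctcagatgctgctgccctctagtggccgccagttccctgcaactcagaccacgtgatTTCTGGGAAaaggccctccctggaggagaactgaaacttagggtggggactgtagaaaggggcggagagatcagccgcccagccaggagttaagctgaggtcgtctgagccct
SOCS1: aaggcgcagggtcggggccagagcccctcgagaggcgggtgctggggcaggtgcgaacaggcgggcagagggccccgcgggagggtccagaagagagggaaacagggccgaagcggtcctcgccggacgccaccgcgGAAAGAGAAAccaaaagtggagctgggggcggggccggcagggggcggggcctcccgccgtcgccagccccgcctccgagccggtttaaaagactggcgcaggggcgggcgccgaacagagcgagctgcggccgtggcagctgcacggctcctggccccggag
The windows of IRF1 and SOCS1 held 36 and 33 CpG dinucleotides and that of IRF9 held 7, against a median of 14 over all windows. The windows of STAT2, JAK1 and IRF5 held neither motif.

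Depth ranged from 26.4 to 47 M expected counts per library. Values per library below are CPM after TMM scaling, which are counts per library total,, in the order of replicates 1, 2 and 3. A gene was called where the Benjamini-Hochberg adjusted p of edgeR's quasi-likelihood test over all 15890 genes was below 0.05, and log2 fold changes carry their standard error (SE). The SE was worked back from the log2 fold change and the F statistic of that test. The 95% intervals took a t quantile on 8 residual degrees of freedom, unlike the p-values, so the 2 can differ near a limit. Libraries of a group differed beyond counting noise, and the shift of a library's counts with gene length (Spearman correlation over genes) ran between -0.36 and 0.25, with both signs within DACTPL, DAC and TPL. The epithelial markers EPCAM, CDH1, KRT8, KRT18 and KRT19 summed to between 2042.0 and 2762.8 CPM in every library. Of these, KRT8 was called higher in DACTPL and in DAC against Ctrl, and EPCAM lower in DAC against Ctrl. In DACTPL against TPL, KRT8 was called higher and EPCAM lower. HBB, among 7 blood cell markers, had 0 counts throughout. PTPRC, a leukocyte phosphatase, was higher in DACTPL and DAC than in Ctrl but stayed below 1 CPM. CD68 was lower, and among 7 stromal and endothelial markers COL1A2 and PDGFRB were higher in both groups, with PECAM1 higher in DACTPL. The 7 stromal and endothelial markers together gave 14.0 to 16.0 CPM in DACTPL, 9.17 to 13.7 in DAC, 8.48 to 13.2 in TPL and 9.0 to 11.9 in Ctrl, and the 7 blood cell markers 42 to 43.9 in DACTPL, 36.6 to 46.4 in DAC, 54.2 to 59.8 in TPL and 51.4 to 55.6 in Ctrl. Their part in the results was not tested. In bulk RNA, more cells with a transcript and more transcript per cell cannot be told apart.

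IRF7 and IRF9 were higher after decitabine and after the combination, and IRF1 was called higher after the combination. In DACTPL against Ctrl, 3 of the 9 members were higher, where 8.64% of all tested genes were, and 1 was lower, where 4.83% of all tested genes were. In DAC against Ctrl, 2 of the 9 were higher and 0 lower, beside 6.27% and 3.59% of all tested genes. In either direction the calls were 13.5% of tested genes in DACTPL and 9.86% in DAC. The median log2 fold change of the 9 members was 0.07 in DACTPL and 0.02 in DAC against Ctrl, beside medians of all tested genes of 0.0128 and 0.00634. All 3 libraries lay above the 3 Ctrl libraries for 4 members in DACTPL and 3 in DAC, and for 19.2% and 18.1% of tested genes. They lay below them for 2 members in DACTPL and 0 in DAC, and for 16.3% and 15.3% of tested genes. These comparisons share the Ctrl libraries.

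**Figure D1:**
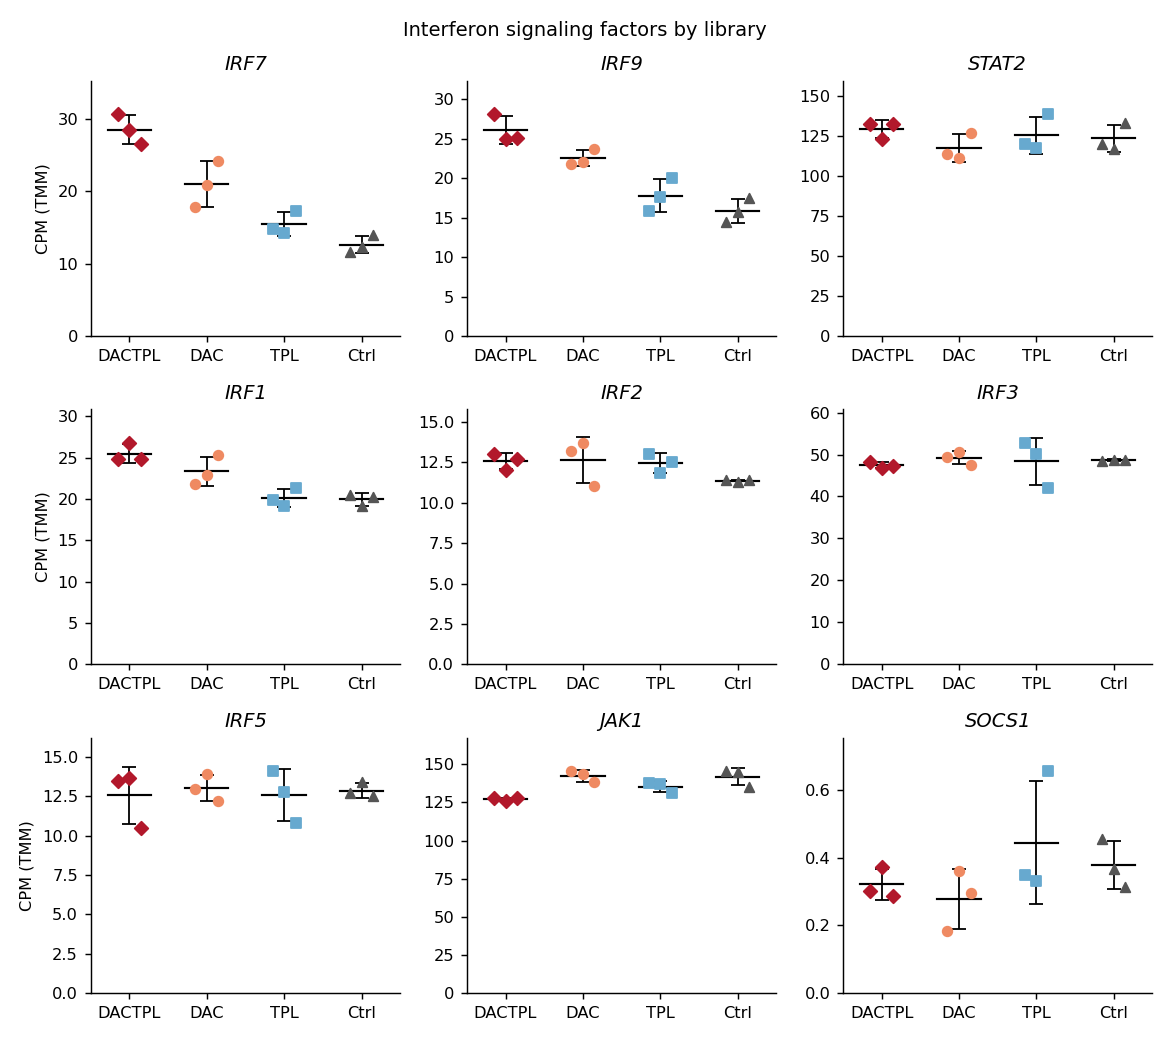
CPM after TMM scaling (vertical axes, from 0) of the 9 genes in each library of DACTPL, DAC, TPL and Ctrl (horizontal axes). Points are libraries, horizontal bars means and error bars SD (n = 3). IRF7 and IRF9 lay highest in DACTPL and next in DAC, while STAT2, IRF3 and IRF5 overlapped between DAC and Ctrl.

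IRF7, the factor that amplifies production of type I interferon, had the largest fold change among the called members in both comparisons. It had 30.6, 28.4 and 26.5 CPM in DACTPL, 17.8, 20.9 and 24.2 CPM in DAC, 14.7, 14.2 and 17.3 CPM in TPL, and 11.6, 12.3 and 13.9 CPM in Ctrl. No library of DACTPL overlapped one of DAC, TPL or Ctrl, and every TPL library stood above every Ctrl library. The rise against Ctrl was 2.25-fold in DACTPL (log2 fold change 1.17, SE 0.12, adjusted p = 2.75e-05) and 1.66-fold in DAC (log2 fold change 0.73, SE 0.12, adjusted p = 0.00157), both with edgeR. In TPL the log2 fold change was 0.28 (95% interval 0.01 to 0.56, adjusted p = 0.217), which did not pass the test. The fold of IRF7 in DACTPL stood at percentile 97.4 of all tested genes and that in DAC at percentile 96.3. With the length trend of each library taken off, IRF7 remained called in both, at log2 fold changes of 1.16 in DACTPL and 0.70 in DAC.

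Between the decitabine groups, IRF7 was 1.36-fold higher in DACTPL than in DAC (log2 fold change 0.44, 95% interval 0.18 to 0.70). The edgeR p was 0.00183 before adjustment and 0.241 after it, so the difference was not called. Against TPL, IRF7 in DACTPL was 1.85-fold higher (log2 fold change 0.89, SE 0.12, adjusted p = 0.000341). The interaction term, DACTPL minus DAC minus TPL plus Ctrl on the log2 scale, was 0.16 for IRF7 (95% interval -0.22 to 0.53, adjusted p = 0.669). It sets the combination against the sum of the single drugs only if decitabine in DACTPL was at 33 nM, as in DAC. Within DAC, IRF7 spread by an SD of 3.23 CPM, the widest of the 4 groups, around a mean of 21.0 CPM.

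IRF9, the DNA-binding subunit of ISGF3, followed the same order of group means. It had 28.1, 25 and 25.1 CPM in DACTPL, 21.8, 22.1 and 23.7 CPM in DAC, 15.8, 17.6 and 20.0 CPM in TPL, and 14.4, 15.7 and 17.5 CPM in Ctrl. All DACTPL libraries lay above all DAC libraries, all DAC libraries above all TPL libraries, and TPL overlapped Ctrl. IRF9 rose 1.64-fold in DACTPL (log2 fold change 0.71, SE 0.09, adjusted p = 0.000298) and 1.42-fold in DAC (log2 fold change 0.50, SE 0.09, adjusted p = 0.00464) against Ctrl with edgeR. Against TPL, IRF9 in DACTPL rose 1.46-fold (log2 fold change 0.55, SE 0.09, adjusted p = 0.00252). The log2 fold change was 0.21 in DACTPL against DAC (adjusted p = 0.316) and 0.16 in TPL against Ctrl (95% interval -0.06 to 0.38, adjusted p = 0.381).

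STAT2, the partner of IRF9 in ISGF3, was not called in any comparison. It had 132.7, 123.1 and 132.4 CPM in DACTPL, 114.0, 111.2 and 127.1 CPM in DAC, 120.0, 117.6 and 138.5 CPM in TPL, and 120.1, 117.1 and 133.2 CPM in Ctrl, so that the libraries overlapped in each of the 5 pairwise comparisons. The log2 fold change against Ctrl was 0.07 in DACTPL (95% interval -0.11 to 0.25), -0.07 in DAC (-0.25 to 0.11) and 0.02 in TPL (-0.16 to 0.20).

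IRF1, an activator of class I antigen presentation genes, moved less. It had 24.8, 26.8 and 24.8 CPM in DACTPL, 21.8, 22.9 and 25.3 CPM in DAC, 19.9, 19.2 and 21.3 CPM in TPL, and 20.5, 19.1 and 20.3 CPM in Ctrl. The DACTPL and the DAC libraries all lay above the Ctrl libraries, while DACTPL overlapped DAC and TPL overlapped Ctrl. IRF1 rose 1.27-fold in DACTPL (log2 fold change 0.35, SE 0.07, adjusted p = 0.00577) and was at a log2 fold change of 0.23 in DAC (95% interval 0.06 to 0.39, adjusted p = 0.061), which did not pass. DACTPL was 1.26-fold above TPL (adjusted p = 0.00912), but without TPL replicate 2 the adjusted p of IRF1 there was 0.0574. On the TPM scale, tested with limma on log2(TPM + 1), the IRF1 log2 fold change in DACTPL against Ctrl was 0.17 (adjusted p = 0.129). The median of all genes on that scale was itself at -0.114, and IRF1 relative to it was at 0.28. IRF1 in DAC against Ctrl passed with the length trend taken off (adjusted p = 0.0339) and without TPL replicate 3, which shares the estimate of the spread (adjusted p = 0.043).

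IRF2, which binds the same sites as IRF1 and can repress them, had 13.0, 12 and 12.7 CPM in DACTPL, 13.2, 13.7 and 11 CPM in DAC, 13.0, 11.8 and 12.5 CPM in TPL, and 11.4, 11.3 and 11.4 CPM in Ctrl. Its DACTPL and TPL libraries all stood above those of Ctrl, by log2 fold changes of 0.14 (95% interval -0.05 to 0.33) and 0.12 (-0.07 to 0.31), and no comparison passed the test. Counts of genes that overlap another on the opposite strand are uncertain. In a gene annotation of another build than that of the counts, 4 members overlap a gene on the opposite strand. These are IRF1 with C5orf56, IRF3 with BCL2L12, JAK1 with RAVER2 and SOCS1 with RMI2. How strand was treated in counting was not given in the sources used here. None of these 4 overlapping genes was called in any of the comparisons.

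IRF3, the factor that starts interferon production in most cells, and IRF5, which acts below Toll-like receptors, gave no call. IRF3 ranged from 46.9 to 48.3 CPM in DACTPL, 47.6 to 50.7 in DAC, 42.1 to 52.8 in TPL and 48.4 to 48.8 in Ctrl. Its log2 fold change against Ctrl was -0.03 in DACTPL (95% interval -0.20 to 0.13) and 0.02 in DAC (-0.15 to 0.18). IRF5 ranged from 10.5 to 13.7 CPM in DACTPL, 12.2 to 13.9 in DAC, 10.8 to 14.1 in TPL and 12.5 to 13.4 in Ctrl, with log2 fold changes of -0.03 (-0.29 to 0.22) in DACTPL and 0.01 (-0.24 to 0.27) in DAC. The 3 DACTPL libraries of IRF3 lay just below those of Ctrl, by less than 2 CPM.

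JAK1, the kinase shared by the receptors of all interferon types, was the only member called lower. It had 127.9, 126.1 and 127.7 CPM in DACTPL, 145.5, 143.5 and 138.2 CPM in DAC, 137.7, 137.2 and 131.2 CPM in TPL, and 145.4, 144.8 and 135.3 CPM in Ctrl. The DACTPL libraries lay below all other libraries, and DAC and TPL overlapped Ctrl. JAK1 fell to 0.897-fold in DACTPL against Ctrl (log2 fold change -0.16, SE 0.05), at an adjusted p of 0.0496 with edgeR, just inside the threshold. Against DAC the log2 fold change was likewise -0.16 (unadjusted p = 0.00525, adjusted p = 0.273). The call against Ctrl was lost in 11 of 23 alternative settings, while the log2 fold change of JAK1 stayed between -0.314 and -0.139 in all 23. In the fits on counts it stayed between -0.19 and -0.139. The -0.314 came from limma on log2(TPM + 0.1), where the median of all genes was itself at -0.142. With edgeR the call was lost with no expression filter (adjusted p = 0.0633), with only the groups compared in the fit (0.052) and with the length trend taken off (0.0743). It was also lost without Ctrl replicate 1 (0.182) or 2 (0.175), without DAC replicate 1 (0.0618), 2 (0.0738) or 3 (0.0528), and without DACTPL replicate 1 (0.0732), 2 (0.108) or 3 (0.116).

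SOCS1, which blocks JAK1 and JAK2 in a negative feedback loop and is induced by interferon, was the least abundant member. It had 13, 12 and 9 expected counts in DACTPL, 7, 12 and 13 in DAC, 9, 10 and 20 in TPL, and 18, 11 and 15 in Ctrl. The groups overlapped, and at this depth the 95% interval of the log2 fold change reached from -1 to 0.54 in DACTPL and from -1.21 to 0.35 in DAC against Ctrl. A change of SOCS1 within these limits was not detectable.

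**Figure D2:**
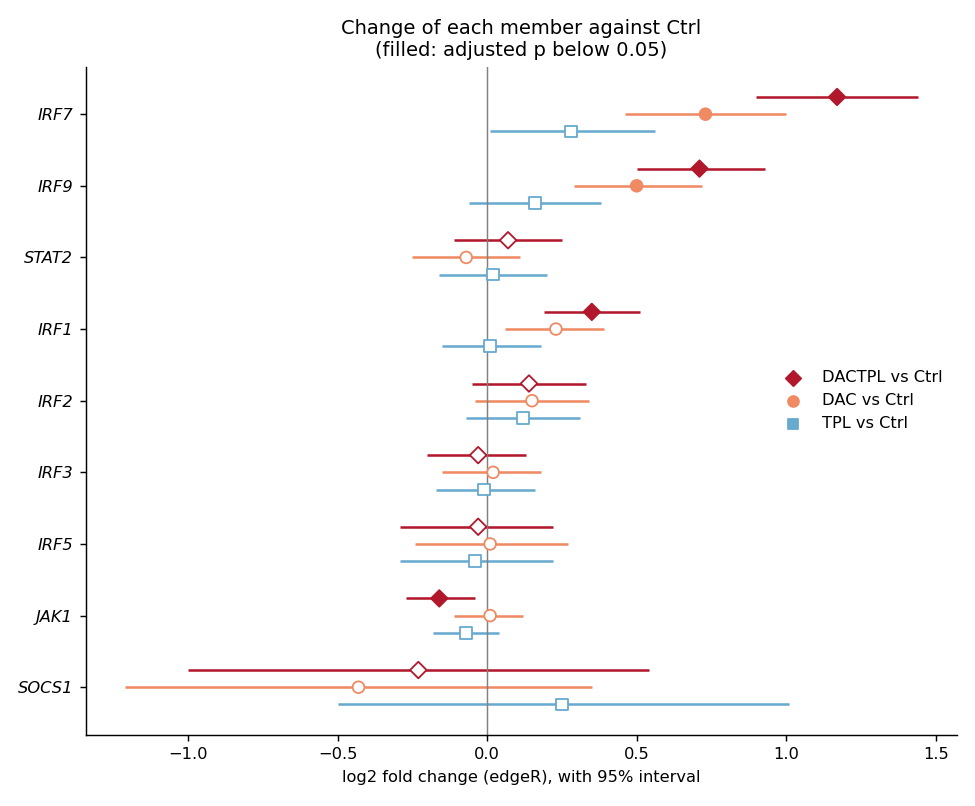
Log2 fold change (edgeR) of each gene against Ctrl (horizontal axis) with its 95% interval worked out from the SE, for DACTPL, DAC and TPL (3 libraries each). Filled symbols passed an adjusted p below 0.05: IRF7, IRF9, IRF1 and JAK1 in DACTPL, IRF7 and IRF9 in DAC and none in TPL. SOCS1 has the widest intervals.

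In TPL against Ctrl, 0 of the 9 members were called with edgeR or DESeq2, beside 2.47% of all tested genes, 1.68% higher and 0.787% lower. On the TPM scale limma called 6 members lower. On log2(TPM + 1), 10782 of the 15890 tested genes were called lower, and the median of all genes was itself at -0.29. With edgeR, 1 member, IRF7, had an unadjusted p below 0.05. The share of all tested genes at that unadjusted threshold was not computed for any comparison. TPL stood above Ctrl without overlap for 2 members, IRF2 and IRF7, beside 11.3% of tested genes. In DACTPL against DAC, 0 members were called with either tool, beside 0.0315% of all tested genes, 0.0189% higher and 0.0126% lower, and limma on TPM likewise called 0. At an unadjusted p below 0.05 with edgeR there were 3, with IRF7 and IRF9 higher and JAK1 lower in DACTPL. This count has no share of all tested genes to be set against. The DACTPL libraries lay above DAC for 2 members and below it for 1, beside 9.52% and 10.3% of tested genes. In DACTPL against TPL, the 3 members IRF1, IRF7 and IRF9 were higher and 0 lower, beside 6.93% and 3.59% of tested genes (10.5% in either direction). The interaction called 0 members with edgeR or DESeq2, beside 0.00629% of tested genes with edgeR. At an unadjusted p below 0.05 with edgeR there were likewise 0. With limma on log2(TPM + 1) it called 3 members, all higher, where 5077 of the 15890 tested genes were called higher. Because the labels leave the decitabine dose of DACTPL open between 33 and 3 nM, DACTPL and DAC may differ in decitabine dose as well as in triptolide.

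Levels were compared between genes in TPM (transcript abundance per length), which are per length. In DACTPL the order of TPM was IRF3 (38.3 ± 1.80), STAT2 (33.8 ± 2.28), JAK1 (29.8 ± 1.01), IRF9 (19.7 ± 1.80), IRF7 (18 ± 1.61), IRF1 (8.60 ± 0.197), IRF2 (6.79 ± 0.443), IRF5 (5.48 ± 0.759) and SOCS1 (0.380 ± 0.0436), as mean ± SD with n = 3. In Ctrl it was IRF3 (43.5 ± 0.980), JAK1 (37.1 ± 2.0), STAT2 (36 ± 2.12), IRF9 (13.4 ± 1.10), IRF7 (8.96 ± 0.742), IRF1 (7.53 ± 0.331), IRF2 (6.87 ± 0.114), IRF5 (6.26 ± 0.251) and SOCS1 (0.493 ± 0.095). Among neighbours in the order, IRF9 and IRF7 overlapped in DACTPL and JAK1 and STAT2 overlapped in Ctrl. In DAC the order was that of Ctrl, with overlap between JAK1 and STAT2, IRF1 and IRF2, and IRF2 and IRF5. In TPL it was IRF3, STAT2, JAK1, IRF9, IRF7, IRF1, IRF2, IRF5 and SOCS1, with overlap of IRF3 with STAT2, STAT2 with JAK1, IRF9 with IRF7, and IRF1 with IRF2.

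**Figure D3:**
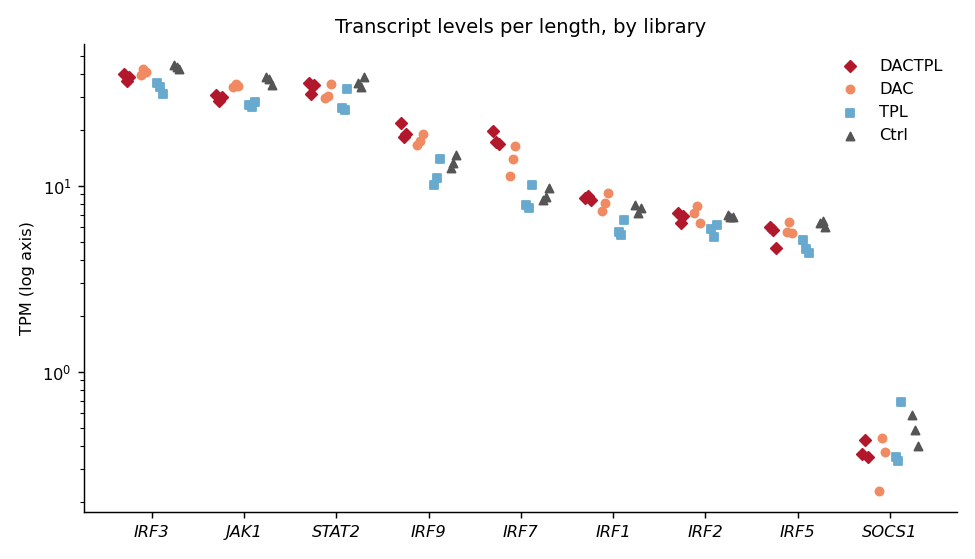
Transcript level in TPM (log axis) of each gene in every library, with the 4 groups side by side for each gene (3 points per group). IRF7 lay between 16.88 and 19.84 TPM in DACTPL and between 8.36 and 9.79 TPM in Ctrl, and SOCS1 lay below 1 TPM in every library.

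Ratios of TPM between members of 1 library do not depend on that library's scaling, but can still shift with its gene length trend. IRF7 over IRF3 was 0.496, 0.474 and 0.440 in DACTPL, 0.285, 0.329 and 0.400 in DAC, 0.221, 0.224 and 0.326 in TPL, and 0.188, 0.201 and 0.230 in Ctrl. DACTPL stood above every other library, and DAC above Ctrl, while DAC and TPL overlapped, with TPL replicate 3 above DAC replicate 1. IRF9 over STAT2 was 0.613, 0.587 and 0.548 in DACTPL, 0.555, 0.576 and 0.540 in DAC, 0.382, 0.433 and 0.418 in TPL, and 0.348, 0.390 and 0.382 in Ctrl. Here DACTPL and DAC overlapped and both lay above TPL and Ctrl. The ratio of geometric means was 2.28 in DACTPL against Ctrl and 1.63 in DAC against Ctrl for IRF7 over IRF3, and 1.56 and 1.49 for IRF9 over STAT2. A ratio shows unequal change of its 2 genes and not which of them moved.

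**Figure D4:**
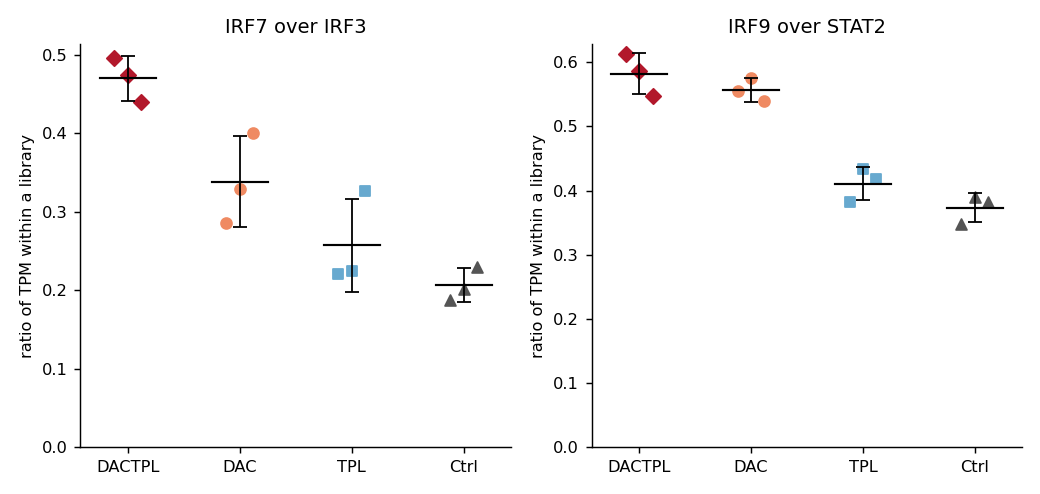
Ratio of TPM within each library (vertical axes, from 0) of IRF7 over IRF3 and of IRF9 over STAT2, in DACTPL, DAC, TPL and Ctrl. Points are libraries, bars means and error bars SD (n = 3). The IRF7 over IRF3 ratio averaged 0.470 in DACTPL and 0.206 in Ctrl, and the IRF9 over STAT2 ratio 0.583 and 0.373.

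Over the 12 libraries, the log2 CPM of IRF7 and IRF9 had a Pearson correlation of 0.97, that of IRF1 and IRF7 0.94 and that of IRF1 and IRF9 0.89, as a description over libraries that fall into treatment groups and share their depth and length trend. JAK1 ran the other way, at -0.69 with IRF7. Among the genes most like IRF7 by this measure were MMP15 (0.99) and IFI6 (0.98). Those most like IRF9 were BMP4 (0.99), IFI6 (0.98) and RHOV (0.98), those most like IRF1 were ONECUT2 (0.98), SIDT2 (0.98) and SLC8B1 (0.97), and those most like JAK1 were ALKBH8 (0.98), DHODH (0.97) and CDV3 (0.97). IFI6, an interferon-induced mitochondrial protein, averaged 36.7 ± 3.12 CPM in DACTPL, 23.9 ± 5.55 in DAC, 10.1 ± 2.70 in TPL and 7.12 ± 2.10 in Ctrl (SD, n = 3 each).

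The ligands were close to absent. Of 24 interferon gene symbols, which include older names of IFNL1, IFNL2 and IFNL3, 21 were in the table, so that no listed gene was missing. Of these 21, 12 had 0 counts in every library, including IFNG and 9 of 13 IFNA genes. IFNB1 gave at most 2 counts in a library. IFNL1, a type III interferon, gave 3 to 9 counts in DACTPL, 4 to 6 in DAC, 0 to 3 in TPL and 0 to 1 in Ctrl, too few for the filter. IFNE, which is made constitutively in epithelia of the reproductive tract, was the 1 gene tested, with 27 to 29 counts in DACTPL, 13 to 45 in DAC, 3 to 44 in TPL and 32 to 45 in Ctrl, and was not called.

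Of 9 other receptor chains and Janus kinases tested, IFNGR1, the binding chain of the interferon gamma receptor, was the 1 called higher in DACTPL (57.6 ± 3.32 CPM) and in TPL (56.6 ± 2.26 CPM) against Ctrl (42.5 ± 1.96 CPM; SD, n = 3 each). A single call among 9 is near the 8.64% of all tested genes that were higher in DACTPL, and in TPL 1.68% were. The folds of IFNGR1 were 1.36 in DACTPL (adjusted p = 0.000314) and 1.33 in TPL (adjusted p = 0.00606) with edgeR, and 1.12 in DAC (adjusted p = 0.107), at 47.4 ± 0.639 CPM. JAK3 was lower in DAC (18.6 ± 2.18 CPM) than in Ctrl (23.0 ± 0.472 CPM; adjusted p = 0.0205), and IFNLR1 was higher in DACTPL than in TPL (adjusted p = 0.0139). These were single calls among the 9, beside 3.59% of all tested genes lower in DAC against Ctrl and 6.93% higher in DACTPL against TPL. IFNAR1, IFNAR2, IFNGR2, IL10RB, JAK2 and TYK2 were called in none of the comparisons.

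Among 19 negative regulators tested, edgeR called 0 higher in any of the comparisons, where 8.64% of all tested genes were higher in DACTPL, 6.27% in DAC and 1.68% in TPL against Ctrl, so that few or no calls in a list of this size are near the background. PTPN11 was lower in DACTPL against Ctrl (0.876-fold, adjusted p = 0.0326) and SOCS7 in TPL against Ctrl (0.848-fold, adjusted p = 0.0468) with edgeR. Each was the 1 lower call among the 19, beside 4.83% of all tested genes lower in DACTPL and 0.787% in TPL. USP18, a protease that removes ISG15 and blocks the interferon receptor, was at 30.3 ± 1.69 CPM in DACTPL, 30.4 ± 0.469 in DAC, 28.5 ± 1.68 in TPL and 27.7 ± 1.09 in Ctrl and was not called. Among 16 adaptors and kinases upstream of IRF3 and IRF7, TMEM173, which encodes the DNA-sensing adaptor STING, was the 1 called higher, a share near the 8.64% and 6.27% of all tested genes in DACTPL and DAC. TMEM173 had 44.3 ± 1.21 CPM in DACTPL, 38.6 ± 3.66 in DAC, 35.2 ± 1.0 in TPL and 30.3 ± 2.40 in Ctrl, 1.46-fold higher in DACTPL (adjusted p = 0.000402) and 1.27-fold in DAC (adjusted p = 0.0109) than in Ctrl. IKBKG, the regulatory subunit of the IKK complex, fell to 0.814-fold in DACTPL against Ctrl (adjusted p = 0.0067). It was the 1 lower call among the 16 in that comparison, beside 4.83% of all tested genes.

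Most of the listed antiviral genes that ISGF3 is known to switch on were called higher in both decitabine groups. Of 36 listed target genes, 35 were tested: 32 were higher in DACTPL and 26 in DAC against Ctrl, 3 in TPL against Ctrl, 29 in DACTPL against TPL and 1 in DACTPL against DAC, and 0 were lower in any of these. Over all tested genes, 8.64% were higher in DACTPL, 6.27% in DAC and 1.68% in TPL against Ctrl, 6.93% in DACTPL against TPL and 0.0189% in DACTPL against DAC. The list was chosen with earlier results of these data known. A gene near 0 in Ctrl passed the filter only through the groups where it was high. These counts therefore only describe the list. The median log2 fold change of the list was 1.89 in DACTPL, 1.33 in DAC and 0.25 in TPL against Ctrl, beside 0.0128, 0.00634 and -0.000341 over all tested genes. IFI27 had 16.9 ± 2.72 CPM in DACTPL, 9.88 ± 0.575 in DAC, 0.527 ± 0.0902 in TPL and 0.537 ± 0.0606 in Ctrl, and was the gene called between DACTPL and DAC (1.72-fold, adjusted p = 0.0279). With Ctrl replicate 1, 2 or 3, TPL replicate 1, DAC replicate 1 or 2, or DACTPL replicate 1 or 2 left out, 0 target genes were called between DACTPL and DAC. BST2, which holds budding virus at the cell surface, had 1.72 ± 0.0841 CPM in DACTPL and 1.27 ± 0.323 in DAC, against 0.154 ± 0.0421 in Ctrl. IFI44L gave 34 to 53 counts in DACTPL and 21 to 43 in DAC, against 0 to 4 in Ctrl, and CMPK2 gave 17 to 32 in DACTPL and 17 to 26 in DAC, against 0 to 3 in Ctrl. In TPL the genes called higher were IFI35, OASL and ISG20, and with the length trend taken off 0 were.

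Summed over the 36 target genes, the libraries held 1152.1, 1127.3 and 1134.4 CPM in DACTPL, 930.6, 928.4 and 1062.1 CPM in DAC, 440.9, 444.8 and 575.5 CPM in TPL, and 404.0, 407.0 and 466.4 CPM in Ctrl. DACTPL lay above DAC and DAC above TPL without overlap, and TPL overlapped Ctrl. Of single tested genes, 9.52% lay above DAC in DACTPL without overlap, and 1 of the 35 target genes tested was called between them. Abundant genes weigh most in such a sum, and some target genes, IFIT2 among them, had a lower mean in DACTPL than in DAC. Replicate 3 was the highest of its group in DAC, TPL and Ctrl both for this sum and for IRF7 and IRF9. In DACTPL it was replicate 1.

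**Figure D5:**
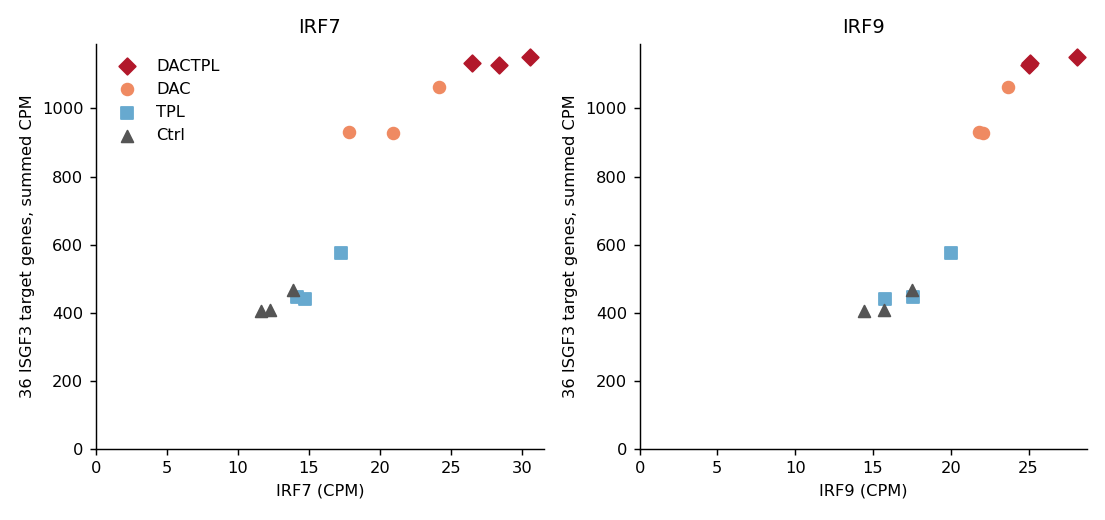
Summed CPM of the 36 ISGF3 target genes (vertical axes, from 0) against the CPM of IRF7 and of IRF9 (horizontal axes, from 0), 1 point per library, in DACTPL, DAC, TPL and Ctrl. The 6 libraries with decitabine lie above 900 CPM of target genes and the other 6 below 600.

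Targets of IRF1 and interferon gamma moved in part. Of 22 listed genes, 18 were tested, and 6 were higher in DACTPL and 6 in DAC against Ctrl, while 2 were lower in DACTPL and 0 in DAC. Over all tested genes 8.64% were higher and 4.83% lower in DACTPL, and 6.27% higher and 3.59% lower in DAC. The median log2 fold change of the list was 0.28 in DACTPL and -0.01 in DAC, beside 0.0128 and 0.00634 over all tested genes. GBP1, an antimicrobial GTPase, had 1.85 ± 0.227 CPM in DACTPL, 1.74 ± 0.0972 in DAC, 0.966 ± 0.184 in TPL and 0.693 ± 0.107 in Ctrl. IL15, a cytokine that sustains natural killer cells, rose 2.08-fold in DACTPL (adjusted p = 0.000118) and 1.78-fold in DAC (adjusted p = 0.00106), and B2M, the light chain of class I molecules, rose 1.5-fold (adjusted p = 0.000797) and 1.29-fold (adjusted p = 0.0199) in the same comparisons with edgeR. The 2 genes that fell in DACTPL were CD274, which encodes the checkpoint ligand PD-L1, and WARS, a tryptophan tRNA synthetase. CD274 had 7.77 ± 0.361 CPM in DACTPL, 11.2 ± 1.71 in DAC, 10.9 ± 1.79 in TPL and 12.5 ± 1.54 in Ctrl, a fold of 0.624 in DACTPL against Ctrl (adjusted p = 0.00645).

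The authors' deposited tables of comparisons gave IRF7 a log2 fold change of 0.98 in DACTPL (adjusted p = 8.42e-18) and 0.61 in DAC (adjusted p = 1.01e-06) against Ctrl, and 0.37 in DACTPL against DAC (adjusted p = 0.0592). For IRF9 the authors' deposited tables gave 0.62 in DACTPL (adjusted p = 2.36e-09) and 0.44 in DAC (adjusted p = 0.00012) against Ctrl. For IRF1 the authors' deposited tables gave 0.31 in DACTPL (adjusted p = 0.000764) and 0.20 in DAC (adjusted p = 0.0675), and for JAK1 -0.16 in DACTPL (adjusted p = 0.0114). A list of 704 genes for which the authors deposited z-scores held IRF1, IRF7 and IRF9 and no other of the 9 members.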

How the data were processed

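Gene expression in 12 DU145 libraries was analysed from the authors' table of expected counts and their TPM per gene; RSEM 1.2.09 and hg19 are listed in the submitters' processing notes. The authors' deposited comparison tables hold a log2 fold change and p-values for each gene, and the notes list DESeq2 and R 4.0.4. The deposited z-score list holds scores that the authors computed per gene over the samples, per the file headers. No source used here named the aligner, the annotation or the strand setting.

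Expected counts (64.3% of them whole to within 0.005) were rounded and tested with edgeR 4.0.16 in R 4.3.3, with TMM scaling and the filterByExpr filter. The quasi-likelihood model was robust and shared by the 12 libraries, and p-values were adjusted by Benjamini-Hochberg over 15890 genes. Depth was 26.4 to 47 M counts per library and the biological coefficient of variation 9%. The fit was tested on simulated data. Each drug group was compared with Ctrl and DACTPL with each single drug, and the interaction was tested. Alternatives used DESeq2 1.42.0, limma 3.58.1 on TPM, other filters, RLE normalization, the fit on the groups compared, a length correction, a replicate block and libraries left out. Members and gene lists were chosen with earlier results of these data known. Named genes are all 9 members, up to 4 called genes of a list with the largest absolute log2 fold change in DAC or DACTPL against Ctrl (with no call, the 2 of highest CPM), and, for each called member, the 3 genes of highest Pearson correlation. IFNB1, USP18, WARS, IFI35, OASL and ISG20 were named after their values were seen. Some genes that this rule names, and 1 gene list, are not reported here. Promoter sequences and coordinates are from RefSeq on GRCh38.p14, not the build of the counts, and served for sequence alone.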

Additional observations from a re-analysis of the deposited data

How the results depend on the processing

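IRF7 and IRF9 were called higher in DAC and in DACTPL against Ctrl under all 23 alternatives; log2 fold changes of IRF7 ran from 0.563 to 0.838 in DAC and 0.931 to 1.252 in DACTPL, and those of IRF9 from 0.374 to 0.583 and 0.521 to 0.791. With each library left out in turn, the members called numbered 3 to 4 in DACTPL and 2 to 3 in DAC against Ctrl, 0 to 0 in TPL against Ctrl, 0 to 0 in DACTPL against DAC, 2 to 3 in DACTPL against TPL and 0 to 0 in the interaction. On the TPM scale (limma, log2(TPM + 1) and log2(TPM + 0.1)), the median of all genes in TPL against Ctrl moved to -0.29 and -0.357. Members called there were 6 in each case, all lower, where 10782 and 10855 of all 15890 genes were called lower. In the interaction 3 members were called in each case, all higher, where 5077 and 5085 of all genes were called higher. In TPL against Ctrl, IRF1 turned to -0.313 and -0.356, IRF2 to -0.216 and -0.247 and STAT2 to -0.342 and -0.352, which relative to that median is -0.02 and 0.00 for IRF1, 0.07 and 0.11 for IRF2 and -0.05 and 0.01 for STAT2. IRF7 and IRF9, called in neither fit, were at -0.073 and -0.197 there on log2(TPM + 1). Of 35 ISGF3 target genes tested, 6 and 7 were called lower on the TPM scales, beside the 10782 and 10855 of all 15890 genes. In DACTPL against TPL the medians of all genes were themselves at 0.164 and 0.214, and in the interaction at 0.242 and 0.309. JAK1 was at 0.122 and 0.126 in DACTPL against TPL, not called, which relative to the median is -0.04 and -0.09. IRF3 turned to 0.19 and 0.195 in DACTPL against TPL, or 0.03 and -0.02 relative to the median. In the interaction IRF3 turned to 0.277 and 0.284, or 0.04 and -0.03 relative to the median. In DACTPL against Ctrl IRF1 was not called on either TPM scale (adjusted p = 0.129 and 0.135). Medians of all genes there were -0.114 and -0.142, and IRF1 relative to them was at 0.28 and 0.33. The cause was not tested beyond these shifts of the medians.

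The replicate numbers of the labels pair the samples only by number: correlations of the deviations of same-numbered libraries ran from 0.091 to 0.311 (DAC and Ctrl), -0.071 to 0.143 (DACTPL and Ctrl), 0.097 to 0.34 (TPL and Ctrl), -0.065 to 0.259 (DACTPL and DAC) and -0.193 to 0.186 (DACTPL and TPL). With the replicate block, 1 member (IRF7) was called in DACTPL against DAC, beside 580 of all 15890 genes. With the length trend taken off as well, 2 members were called (IRF7 and JAK1), beside 939 of all genes. IRF1 passed in DAC against Ctrl with the replicate block (edgeR, adjusted p = 0.0384). Without the 3 libraries whose length trend had the other sign than their group (TPL replicate 3, DAC replicate 3, DACTPL replicate 1), an alternative added after seeing the data, 2 members were called in DACTPL against DAC, IRF7 (adjusted p = 0.0037) and JAK1 (adjusted p = 0.0174). In that setting 4174 genes of the whole table were called, 2041 higher and 2133 lower. The libraries left then differ in length trend between groups, so that trend and group cannot be told apart.

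Genes called over the whole table ranged over the alternatives from 753 to 3713 in DAC against Ctrl (1566 as reported), 1146 to 4764 in DACTPL against Ctrl (2141), 23 to 10907 in TPL against Ctrl (392), 0 to 4174 in DACTPL against DAC (5), 784 to 5786 in DACTPL against TPL (1671) and 0 to 5103 in the interaction (1). On log2(TPM + 1), 783 of the calls in DACTPL against Ctrl were higher and 3981 lower, against 1373 and 768 on counts, and 521 and 1318 in DAC against Ctrl, against 996 and 570. ISGF3 target genes called higher ranged from 28 to 34 in DACTPL, 22 to 32 in DAC and 0 to 7 in TPL against Ctrl and 0 to 12 in DACTPL against DAC. The interaction could not be fitted on the groups compared alone, and SOCS1 left the table under the filter of 1 CPM in 6 libraries. Depth limits SOCS1 and the interferon genes.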
